A study of Mus musculus with 10 samples.

Results

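A set of 32 marker genes of monocytes and macrophages was followed in lactating mammary glands after endotoxin. The genes were chosen by symbol, and all 32 were found among the 35275 genes of the expression table. They comprise general macrophage markers, markers of recruited monocytes (Ly6c2, Ccr2 and Plac8) and of resident macrophages (Mrc1, Cd163, Lyve1 and Folr2), the C1q complement genes, Fc receptors with their adaptors, scavenger receptors, genes of lipid-handling macrophages, and genes of antigen presentation. The study, a mouse model of acute mastitis, compared glands given lipopolysaccharide (LPS, the endotoxin of Gram-negative bacteria) with glands given phosphate-buffered saline (PBS). The LPS group holds 5 glands of BALB/c mice, an inbred strain, on day 3 of lactation, each given 50 µL of E. coli 055:B5 LPS at 0.4 mg/mL through the teat and taken at 12 h. The PBS group holds 5 glands of the same strain, lactation day and gland pair, the 4th, given 50 µL of sterile PBS. Sides were alternated within animals, so a PBS gland lay in an animal whose opposite gland received LPS, and no uninjected gland was analysed here. The labels give n = 9 and do not say which animals the 10 libraries came from, so the p-values below measure the spread between these glands only.

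Monocytes are made in the bone marrow and enter tissues from blood, drawn in large part by the chemokine Ccl2 acting on the receptor Ccr2. In tissue they can become macrophages, which depend on signalling through the receptor Csf1r and clear debris, milk residues and microbes through scavenger, Fc and complement-linked receptors. The lactating gland also holds resident macrophages in its ducts and stroma, which in mice often carry Mrc1, Lyve1 and Folr2 in the stroma and Cx3cr1 in the ducts.

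Expression was given as FPKM, which counts fragments relative to gene length and to library depth. Libraries held 15734303 to 18869545 counted reads, so 1 read on a gene of 1 kb was worth 0.053 to 0.0636 FPKM. The limma test on log2(FPKM + 1) covered genes that reached 1 FPKM in 5 or more libraries. Calls were made where p, adjusted over all tested genes by the Benjamini-Hochberg method, was below 0.05. Changes below are LPS minus PBS on that scale with their standard error, a scale on which low genes change less than their FPKM do. Group values are means ± SD with n = 5 glands each.

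Adgre1, the gene of the macrophage antigen F4/80, was at 3.27 to 9.89 FPKM in LPS glands and 4.97 to 13.8 FPKM in PBS glands. Csf1r was at 1.74 to 2.59 FPKM in LPS glands and 1.82 to 6.42 FPKM in PBS glands. Both defining macrophage markers were therefore detected in every gland, with 180 to 753 reads for Adgre1 and 137 to 509 reads for Csf1r. Markers listed for other cell types were detected in the same RNA. Summed FPKM over the neutrophil marker list was 11905 to 17328 in LPS glands and 3003 to 4599 in PBS glands. Few genes carried that sum. Ltf, named after its values were seen, was at 2938 to 4498 FPKM in LPS glands and 2268 to 2943 FPKM in PBS glands. S100a8 was at 4829 to 9570 FPKM in LPS glands and 603 to 1450 FPKM in PBS glands. Cxcr2, likewise named after its values were seen, was at 1.67 to 6.24 FPKM in LPS glands and 0.291 to 1.11 FPKM in PBS glands. LPS gland 1 was the highest LPS gland for S100a8 and the lowest for Cxcr2, so the sum need not follow neutrophil number. Over the B and T cell list the sum was 1.42 to 38.2 in LPS glands and 2.22 to 115 in PBS glands. In whole tissue, fewer cells of a type and less RNA per cell cannot be told apart.

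The 32 genes spanned a wide range of levels per kilobase. Apoe, the apolipoprotein that macrophages share with other cells, had the highest mean FPKM over the 10 libraries, 117. After it came C1qa with 24.8, Fcer1g with 18.7, C1qb with 17.4, Plac8 with 15.9 and Tyrobp with 15.7 FPKM. Adgre1 averaged 7.56 FPKM, Cd68 7.42 and Csf1r 2.98. At the low end stood Ccr2 with a mean of 0.760, Clec7a with 0.534, Gpnmb with 0.267 and Trem2 with 0.0170 FPKM. Many neighbours in this order lay within each other's spread. Plac8, for example, was at 19.1 ± 8.75 FPKM in LPS glands and 12.6 ± 3.55 FPKM in PBS glands. Tyrobp was at 15.9 ± 4.16 FPKM in LPS glands and 15.4 ± 5.51 FPKM in PBS glands. The order also depended on the group. C1qb, at 14.5 ± 4.49 FPKM in LPS glands and 20.4 ± 7.19 FPKM in PBS glands, averaged below Plac8 in LPS glands and above it in PBS glands. Of the 32 genes, 23 passed the filter and 9 did not (Ccr2, Mrc1, Cd163, Marco, Clec7a, Trem2, Gpnmb, Cd86 and Cd83). Clec7a, Trem2 and Gpnmb stayed below 1 FPKM in all 10 libraries.

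**Figure D1:**
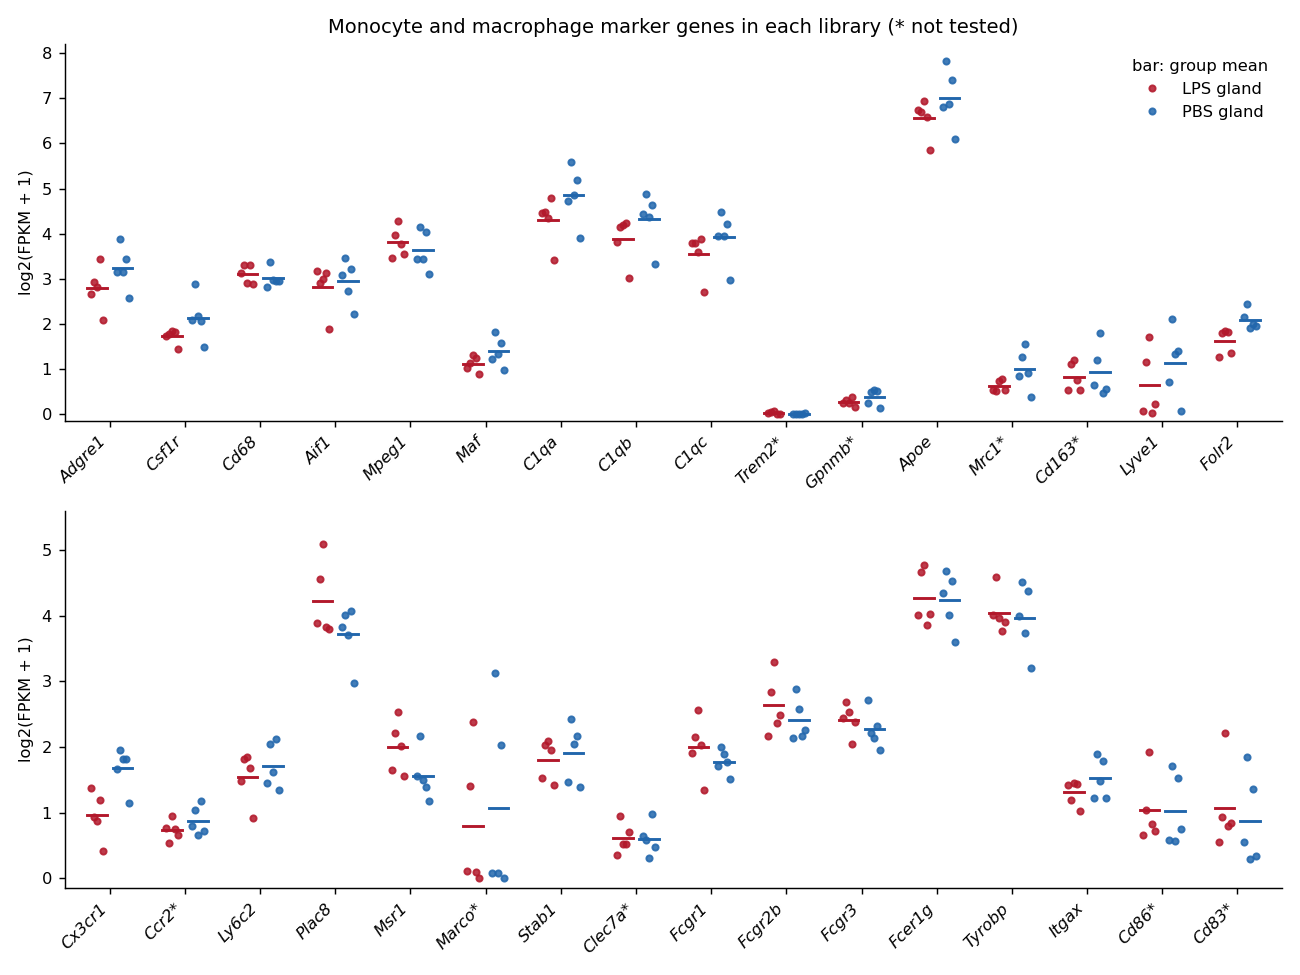
Level of the 32 genes as log2(FPKM + 1) in each gland, LPS glands left of PBS glands, with a bar for the group mean and an asterisk on genes that were not tested. Apoe is highest and Trem2 close to 0 in all glands, and the groups overlap for all genes but Folr2.

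None of the 23 tested genes was called between LPS and PBS glands by limma, 0 in either direction, while 3.23% of all 11414 tested genes were called (300 higher and 69 lower). Adjusted p-values of the 23 genes lay between 0.0691 and 0.969. At an unadjusted p below 0.05, 2 of the 23 were lower in LPS glands (Cx3cr1 and Folr2) and 0 were higher, where 16.5% of all tested genes passed, 4.07% lower and 12.4% higher. On whole reads recovered from the FPKM values, edgeR's quasi-likelihood test called 1 of the 23 lower (Cx3cr1) and 0 higher, beside 1.16% of all genes lower and 2.67% higher. DESeq2 called 3 lower (Cx3cr1, Folr2 and Csf1r) and 0 higher, beside 2.63% and 4.78% of all genes. These 3 genes are also the members in the authors' deposited table of 908 changed genes. That table lists 0.85% of the 35275 genes of the expression table as lower, but 12216 of the 35275 were at 0 in every library. The submitters also name DESeq2, and recovered counts equalled theirs for 907 of the 908 genes, so the match is not independent. The authors' deposited table gives log2 fold changes of -0.84 for Cx3cr1, -0.57 for Folr2 and -0.56 for Csf1r, with adjusted p-values of 0.00417, 0.0366 and 0.0360. Those changes stand on the authors' own scale and not on log2(FPKM + 1). Of the 23 estimates, 14 were below 0 and 9 above, beside 38.6% of all tested genes below 0. Their median was -0.17, beside 0.05 for all tested genes. Scaling each library to its FPKM outside milk protein genes moved the median of all tested genes to -0.14 and that of the 23 genes to -0.32, with 19 below 0.

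**Figure D2:**
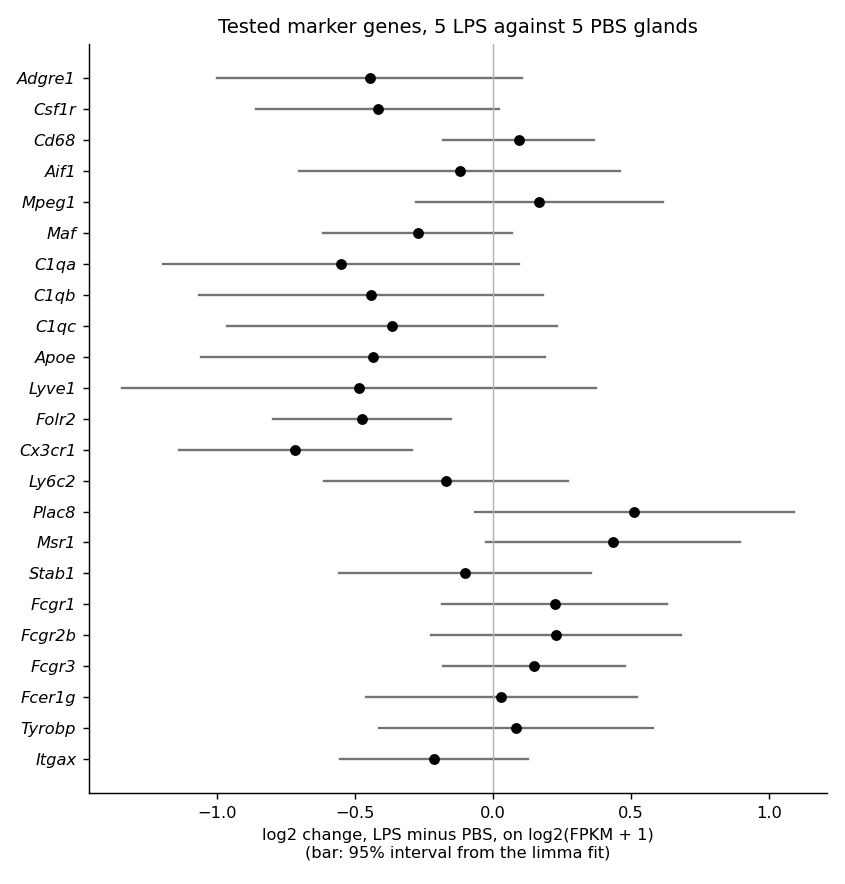
Log2 change of the 23 tested genes, LPS minus PBS on log2(FPKM + 1), with 95% confidence intervals from limma. Only the intervals of Cx3cr1 and Folr2 lie wholly below 0, and no interval lies wholly above 0.

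The largest change was that of Cx3cr1, the receptor of fractalkine, carried by patrolling monocytes and by tissue macrophages such as those of the ducts. Cx3cr1 was at 1.61, 0.917, 0.837, 1.29 and 0.332 FPKM in LPS glands 1 to 5, against 2.17, 2.89, 2.52, 2.51 and 1.21 FPKM in PBS glands 1 to 5. Every LPS gland lay below PBS glands 1 to 4, and the groups overlapped through PBS gland 5, which LPS glands 1 and 4 exceeded. Means were 0.997 ± 0.483 FPKM in LPS glands and 2.26 ± 0.642 FPKM in PBS glands. The change was -0.72 ± 0.19 (95% interval -1.14 to -0.29, adjusted p = 0.0691 by limma, edgeR 0.0496, DESeq2 0.00379). Among the other scalings and the limma fits without a single library, it passed the threshold with median-of-ratios scaling, with scaling to the FPKM outside milk protein genes, without LPS gland 1 and without PBS gland 5. Its annotated locus in GENCODE M21 (GRCm38, the build the submitters name mm10) is chr9:119901616-120069879 on the minus strand and overlaps those of Gorasp1 and Csrnp1 on the same strand, among others. Gorasp1 was at 7.06 ± 1.06 FPKM in LPS glands and 8.08 ± 0.601 FPKM in PBS glands, and Csrnp1 at 4.45 ± 1.77 FPKM in LPS glands and 2.99 ± 0.697 FPKM in PBS glands. Only 1.06% of the 50-base stretches of Cx3cr1 transcripts occur in another gene.

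Promoters are shown for Cx3cr1 and for 3 genes whose values are set beside it below, C1qb and C1qc of the C1q cluster and Marco. They come from RefSeq on GRCm38.p6, run 5′ to 3′ on the strand of the gene, and cover 250 bases before and 50 bases after the start. Capitals mark GAGGAA, the purine-rich core letters bound by PU.1 (Spi1), a transcription factor of the myeloid lineage, or the same letters on the opposite strand, TTCCTC. Such a match is a description of letters, and binding was not measured. Of all 32851 promoters in the table, 28.3% hold it on either strand. RefSeq promoters were matched for 23 of the 32 genes, 30 promoters in all, of which 18, from 14 genes, hold the motif.
Cx3cr1, chr9:120068247-120068546, minus strand, motif in neither direction: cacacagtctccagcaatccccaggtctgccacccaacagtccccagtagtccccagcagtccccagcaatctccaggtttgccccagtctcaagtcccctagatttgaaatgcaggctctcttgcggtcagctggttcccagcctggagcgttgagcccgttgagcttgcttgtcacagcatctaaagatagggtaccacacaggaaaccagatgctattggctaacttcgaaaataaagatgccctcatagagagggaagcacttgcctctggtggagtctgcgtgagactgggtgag
C1qb, chr4:136886151-136886450, minus strand, first motif base at -30 from the start: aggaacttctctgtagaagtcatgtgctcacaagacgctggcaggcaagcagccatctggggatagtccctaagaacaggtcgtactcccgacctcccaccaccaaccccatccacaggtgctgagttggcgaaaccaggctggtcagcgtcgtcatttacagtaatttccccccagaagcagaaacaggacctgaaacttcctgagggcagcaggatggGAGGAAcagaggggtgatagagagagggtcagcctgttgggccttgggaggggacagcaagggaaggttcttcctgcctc
C1qc, chr4:136892865-136893164, minus strand, first motif base at -193: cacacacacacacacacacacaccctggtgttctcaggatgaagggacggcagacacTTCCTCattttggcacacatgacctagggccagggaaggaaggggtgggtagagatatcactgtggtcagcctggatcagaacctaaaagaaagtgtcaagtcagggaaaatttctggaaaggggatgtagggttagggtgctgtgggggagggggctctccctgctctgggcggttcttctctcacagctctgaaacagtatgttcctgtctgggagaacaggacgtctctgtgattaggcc
Marco, chr1:120504975-120505274, minus strand, first motif base at -146: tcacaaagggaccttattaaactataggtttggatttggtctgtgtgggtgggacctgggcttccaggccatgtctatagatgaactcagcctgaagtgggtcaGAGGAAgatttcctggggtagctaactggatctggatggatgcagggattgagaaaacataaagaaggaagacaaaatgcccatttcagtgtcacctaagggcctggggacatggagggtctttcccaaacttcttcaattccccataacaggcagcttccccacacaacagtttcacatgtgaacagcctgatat

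The C1q genes encode the A, B and C chains of complement component C1q, which macrophages make in tissue, and lie beside each other on the minus strand of chromosome 4. C1qa (chr4:136895917-136898803) was at 20.9, 21.3, 19.3, 26.8 and 9.70 FPKM in LPS glands 1 to 5, against 25.3, 47.0, 28.0, 35.3 and 14.0 FPKM in PBS glands 1 to 5. C1qb (chr4:136880129-136886187) was at 13.2, 16.8, 17.3, 18.0 and 7.16 FPKM in LPS glands and 20.7, 28.4, 19.7, 24.0 and 9.02 FPKM in PBS glands. C1qc (chr4:136889804-136893065) was at 12.9, 12.8, 11.1, 13.7 and 5.54 FPKM in LPS glands and 14.5, 21.4, 14.5, 17.7 and 6.91 FPKM in PBS glands. For all 3 chains the fifth gland was lowest in both groups and PBS gland 2 highest. The groups overlapped through PBS gland 5, and for C1qa also through PBS gland 1. Changes were -0.55 ± 0.30 for C1qa (adjusted p = 0.388), -0.44 for C1qb (0.496) and -0.37 for C1qc (0.577), all from limma, and none was called. Summed over the 3 genes, C1q stood at 45.3 ± 13.6 FPKM in LPS glands and 65.3 ± 24.6 FPKM in PBS glands. Of that sum C1qa took 40.5 to 45.8% in LPS glands and 41.7 to 48.5% in PBS glands, C1qb 28.0 to 36.2% in LPS glands and 29.3 to 34.3% in PBS glands, and C1qc 23.3 to 27.5% in LPS glands and 22.1 to 24.0% in PBS glands. No 50-base stretch of their transcripts occurs in another gene.

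General macrophage markers showed no common direction. Adgre1 was at 5.32, 6.66, 6.09, 9.89 and 3.27 FPKM in LPS glands 1 to 5, against 7.86, 13.8, 7.84, 9.93 and 4.97 FPKM in PBS glands 1 to 5. LPS gland 4 was close to PBS gland 4, and the change was -0.45 ± 0.25 (limma adjusted p = 0.423). Csf1r was at 2.33, 2.42, 2.59, 2.52 and 1.74 FPKM in LPS glands, against 3.28, 6.42, 3.51, 3.16 and 1.82 FPKM in PBS glands. All LPS glands lay below 4 of the PBS glands, with PBS gland 5 among the LPS values, and the change was -0.42 ± 0.20 (limma adjusted p = 0.334). The Hmgxb3 gene on the opposite strand overlaps Csf1r and shares 14.3% of its 50-base stretches, and was at 5.81 ± 1.01 FPKM in LPS glands and 5.63 ± 0.796 FPKM in PBS glands. Strand handling in library preparation and counting is not given in the sources used here, so reads of the overlap cannot be assigned. Maf, a transcription factor of mature macrophages, averaged 1.19 ± 0.254 FPKM in LPS glands and 1.69 ± 0.612 FPKM in PBS glands (-0.27, limma adjusted p = 0.433). The lysosomal glycoprotein gene Cd68 averaged 7.68 ± 1.18 FPKM in LPS glands and 7.15 ± 1.29 FPKM in PBS glands (0.09, limma adjusted p = 0.797). For Mpeg1, whose product perforin-2 forms pores in engulfed bacteria, means were 13.3 ± 3.33 FPKM in LPS glands and 11.9 ± 3.95 FPKM in PBS glands (0.17, limma adjusted p = 0.768). For Aif1, the gene of IBA1, they were 6.41 ± 2.16 FPKM in LPS glands and 7.03 ± 2.48 FPKM in PBS glands (-0.12, limma adjusted p = 0.888). The estimates of Cd68, Aif1 and Mpeg1 changed sign under at least 1 other setting.

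Folr2, a folate receptor carried by resident macrophages, was the one tested gene whose groups did not overlap, beside 1.22% of all tested genes separated with LPS lower and 3.53% with LPS higher. It was at 1.42, 2.504, 2.57, 2.55 and 1.59 FPKM in LPS glands 1 to 5, against 3.49, 4.45, 2.80, 3.00 and 2.90 FPKM in PBS glands 1 to 5. The gap was narrow, with 2.57 FPKM in the highest LPS gland and 2.80 FPKM in the lowest PBS gland. Its means were 2.13 ± 0.572 FPKM in LPS glands and 3.33 ± 0.682 FPKM in PBS glands, and its change was -0.48 ± 0.15 (95% interval -0.80 to -0.15, adjusted p = 0.112 by limma, edgeR 0.0766, DESeq2 0.0321). An antisense gene, Gm10602, shares 52.6% of the 50-base stretches of Folr2 (chr7:101839988-101857194, minus strand) and was at 1.57 ± 0.386 FPKM in LPS glands and 2.0 ± 1.02 FPKM in PBS glands, so the Folr2 value is uncertain. The gene rested on 29 to 81 reads per library.

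Lyve1, a hyaluronan receptor of resident macrophages and of lymphatic vessels, varied most among the tested genes. It was at 0.0610, 1.23, 2.26, 0.0240 and 0.181 FPKM in LPS glands, against 0.636, 3.34, 1.52, 1.66 and 0.0479 FPKM in PBS glands. Coefficients of variation were 130% in LPS glands and 86.8% in PBS glands, and the change was -0.48 ± 0.40 (limma adjusted p = 0.615). Since lymphatic vessels also carry Lyve1, the summed lymphatic and lymph node stroma list is set beside it. The sum was 32.4 to 97.6 FPKM in LPS glands and 46.02 to 213 FPKM in PBS glands. Cxcl13 made up much of it, at 16.2 to 70.0 FPKM in LPS glands and 31.9 to 131 FPKM in PBS glands. Prox1, a lymphatic marker, was at 0.417 to 1.27 FPKM in LPS glands and 0.695 to 0.964 FPKM in PBS glands. Cxcl13 and Prox1 were named after their values were seen. The part of the list in the Lyve1 values was not tested. Mrc1, the mannose receptor CD206, was at 0.443 to 0.714 FPKM in LPS glands and 0.315 to 1.94 FPKM in PBS glands, with PBS gland 5 below all LPS glands. Cd163, the haemoglobin scavenger receptor, was at 0.447 to 1.31 FPKM in LPS glands and 0.396 to 2.51 FPKM in PBS glands, highest in PBS gland 3. Neither Mrc1 nor Cd163 passed the filter.

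Among markers of recruited monocytes, Plac8 was the most abundant. It was at 13.9, 22.5, 33.0, 13.2 and 12.9 FPKM in LPS glands 1 to 5, against 13.2, 15.2, 12.1, 15.8 and 6.84 FPKM in PBS glands 1 to 5. LPS glands 2 and 3 stood above all others, while the remaining LPS glands lay within the PBS range. The change was 0.51 ± 0.27 (95% interval -0.07 to 1.09, limma adjusted p = 0.372). Ly6c2, the surface antigen of classical monocytes, was at 1.80, 2.53, 2.59, 2.20 and 0.880 FPKM in LPS glands and 1.73, 3.14, 2.07, 3.34 and 1.54 FPKM in PBS glands (-0.17, limma adjusted p = 0.762). It shares 13.9% of its 50-base stretches with Ly6c1, which endothelial cells express and which was far higher, 109 ± 23.0 FPKM in LPS glands and 111 ± 18.3 FPKM in PBS glands, so the Ly6c2 value is uncertain. Ccr2, the receptor through which monocytes leave the marrow and enter tissue, did not pass the filter, with 0.452 to 0.927 FPKM in LPS glands and 0.574 to 1.27 FPKM in PBS glands.

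Set against each other, the recruited and resident groups gave a score per gland, the mean log2(FPKM + 1) of Ly6c2, Ccr2 and Plac8 minus that of Mrc1, Cd163, Lyve1 and Folr2. The score was 1.44, 1.15, 1.25, 1.23 and 1.12 in LPS glands 1 to 5, against 0.93, 0.60, 0.34, 1.25 and 0.93 in PBS glands 1 to 5. PBS glands 1, 2, 3 and 5 lay below every LPS gland, and PBS gland 4 lay among them. Means were 1.24 ± 0.12 in LPS glands and 0.81 ± 0.35 in PBS glands, a difference of 0.43 that was not tested because the members were chosen for this contrast. Most of it came from the resident side, 0.93 ± 0.32 in LPS glands and 1.29 ± 0.42 in PBS glands, a difference of -0.36. The recruited side averaged 2.17 ± 0.31 in LPS glands and 2.10 ± 0.31 in PBS glands, a difference of 0.07. Without Plac8 the score differed by 0.21. With pseudocounts of 0.1 and 5 in place of 1 the difference was 0.67 and 0.24.

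**Figure D3:**
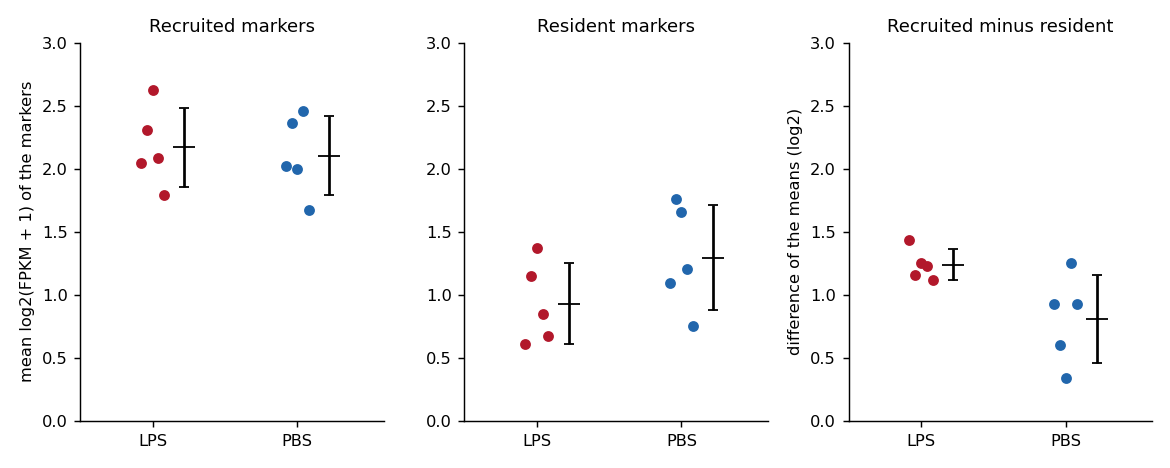
Mean log2(FPKM + 1) of the recruited markers, of the resident markers, and their difference, with a point for each gland, LPS left of PBS, and bars for the mean and SD. The difference averages 1.24 in LPS glands and 0.81 in PBS glands, with PBS gland 4 at 1.25 among the LPS values.

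Scavenger receptors followed no common direction. Msr1, the class A scavenger receptor, was at 2.12, 3.65, 4.76, 3.06 and 1.94 FPKM in LPS glands 1 to 5, against 1.94, 3.48, 1.83, 1.62 and 1.25 FPKM in PBS glands 1 to 5. PBS gland 2 lay within the LPS range, and the change was 0.44 ± 0.21 (95% interval -0.02 to 0.90, limma adjusted p = 0.334). Stab1, stabilin-1, averaged 2.55 ± 0.726 FPKM in LPS glands and 2.88 ± 1.16 FPKM in PBS glands (-0.10, limma adjusted p = 0.879), and its estimate changed sign under 2 other settings. Marco, the receptor of marginal zone and lymph node macrophages whose promoter is shown above, was at 0.0826, 1.66, 4.23, 0.0651 and 0 FPKM in LPS glands, against 0.0575, 7.73, 0.0614, 3.07 and 0 FPKM in PBS glands. It was thus close to 0 in 3 glands of each group and at 1.66 to 7.73 FPKM in the others. Clec7a, the beta-glucan receptor dectin-1, was at 0.279 to 0.920 FPKM in LPS glands and 0.234 to 0.977 FPKM in PBS glands.

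Fc receptors and their signalling adaptors had 5 of 5 estimates above 0 with a median of 0.15, and none was called. Of all tested genes 38.6% were below 0, and their median was 0.05. With scaling to the FPKM outside milk protein genes Fcgr3, Fcer1g and Tyrobp were below 0. Fcer1g and Tyrobp were also below 0 by edgeR and by DESeq2. Fcgr1, the high-affinity IgG receptor CD64, averaged 3.15 ± 1.21 FPKM in LPS glands and 2.45 ± 0.430 FPKM in PBS glands (0.22, limma adjusted p = 0.628). The inhibitory receptor gene Fcgr2b averaged 5.45 ± 2.11 FPKM in LPS glands and 4.40 ± 1.27 FPKM in PBS glands (0.23, adjusted p = 0.663). Fcgr3, an activating receptor, averaged 4.40 ± 0.845 FPKM in LPS glands and 3.89 ± 1.01 FPKM in PBS glands (0.15, adjusted p = 0.709). Fcgr3 shares 9.58% of its 50-base stretches with Fcgr2b, so reads can be split between them. The common gamma chain gene Fcer1g averaged 18.9 ± 5.97 FPKM in LPS glands and 18.5 ± 5.42 FPKM in PBS glands, and Tyrobp, the adaptor DAP12, 15.9 ± 4.16 FPKM in LPS glands and 15.4 ± 5.51 FPKM in PBS glands. Neutrophils also carry Fcer1g, Tyrobp and Fcgr3, and the neutrophil list is given above; its part in these values was not tested.

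Genes of lipid-handling macrophages were led by Apoe. Apoe was at 106, 102, 122, 95.7 and 56.6 FPKM in LPS glands 1 to 5, against 111, 226, 116, 169 and 67.0 FPKM in PBS glands 1 to 5. The fifth gland was lowest in both groups, and the change was -0.44 ± 0.29 (95% interval -1.06 to 0.19, limma adjusted p = 0.505). Gpnmb, a glycoprotein of lipid-laden macrophages, was at 0.124 to 0.313 FPKM in LPS glands and 0.0987 to 0.452 FPKM in PBS glands. Trem2, a lipid receptor that signals through Tyrobp, had 0 to 4 reads per library, at most 0.0483 FPKM, so no difference was detectable at this depth. Of the genes of antigen presentation, the integrin gene Itgax (CD11c) was at 1.49 ± 0.314 FPKM in LPS glands and 1.93 ± 0.634 FPKM in PBS glands (-0.21, limma adjusted p = 0.561) and shares 8.02% of its 50-base stretches with Itgad. Costimulatory Cd86 was at 0.584, 1.06, 2.80, 0.765 and 0.651 FPKM in LPS glands, against 0.501, 2.29, 0.489, 1.88 and 0.689 FPKM in PBS glands. Cd83, a marker of activated antigen-presenting cells, was at 0.470, 0.900, 3.61, 0.731 and 0.798 FPKM in LPS glands and 0.464, 2.60, 0.221, 1.57 and 0.262 FPKM in PBS glands. Both were high in the glands that were high for Marco.

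The spread between glands within a group had a shared pattern. PBS gland 2 was the highest PBS gland for 23 of the 32 genes and PBS gland 5 the lowest for 22. In the LPS group, gland 3 was highest for 20 of the 32 genes and gland 5 lowest for 20. Coefficients of variation of the 23 tested genes were 14.5 to 130% in LPS glands, with a median of 31.1%, and 17.6 to 86.8% in PBS glands, with a median of 35.3%. A lymphocyte score, the mean log2(FPKM + 1) of Cd79a, Cd79b, Ms4a1, Cd3e, Cd3d and Cd3g, was 0.84 and 1.64 in LPS glands 2 and 3 and 3.01 and 2.09 in PBS glands 2 and 4. In the other 6 glands it was 0.10 to 0.31. For 7 of the 32 genes (Mpeg1, Ly6c2, Plac8, Fcer1g, Marco, Cd86 and Cd83) all 4 glands of high score lay above the other 6, beside 4.01% of the 23059 genes above 0. Ccl21a, a chemokine of lymphatic vessels and lymph node stroma, was at 0.634 and 4.85 FPKM in LPS glands 2 and 3, 66.9 and 27.2 FPKM in PBS glands 2 and 4, and 0 to 0.746 FPKM in the other 6. Siglec1, an adhesion receptor of lymph node and other macrophages, was at 0.788, 2.18, 2.85, 1.79 and 0.905 FPKM in LPS glands, against 2.05, 6.37, 2.09, 3.96 and 1.17 FPKM in PBS glands. Ccl21a and Siglec1 were named after their values were seen. With the score as a covariate, and also without the 4 glands, limma called 0 of the 23 genes. Over all tested genes these fits called 6.76% with the covariate and 0.0701% without the 4 glands, so few genes of any kind were called in the smaller set. Without those 4 glands, 3 LPS and 3 PBS glands remained and the recruited minus resident difference was 0.53.

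**Figure D4:**
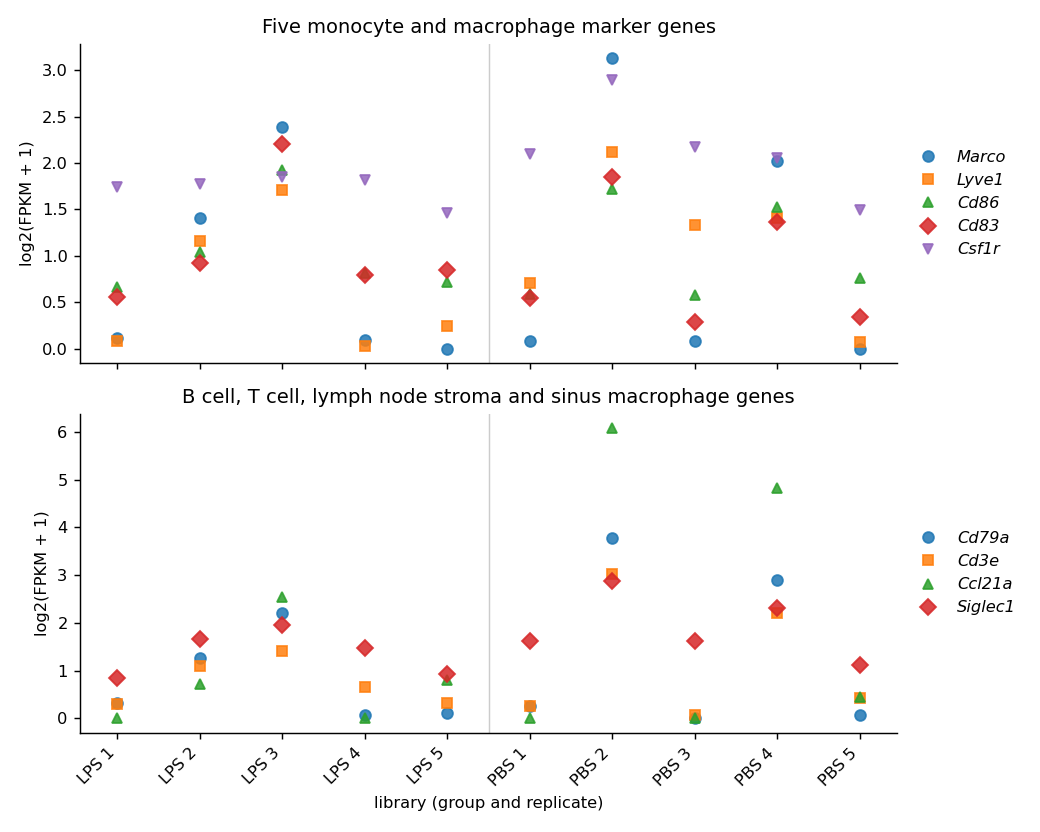
Level as log2(FPKM + 1) in each gland, LPS glands left of PBS glands, of Marco, Lyve1, Cd86, Cd83 and Csf1r (upper panel) and of Cd79a, Cd3e, Ccl21a and Siglec1 (lower panel), genes picked after their values were seen. Marco, at 1.66 to 7.73 FPKM in LPS glands 2 and 3 and PBS glands 2 and 4 and near 0 in the others, is high where Cd79a is high.

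Dividing each gene by Adgre1 in the same gland gave its level relative to that marker. The estimate of Adgre1 itself was -0.45, so a gene without change tends to a higher ratio in LPS glands. Msr1 per Adgre1 had a median of 0.548 (0.310 to 0.781) in LPS glands and 0.247 (0.163 to 0.253) in PBS glands. Of the other 22 tested genes it was the one without overlap between the groups, beside 1.12% of all 11413 tested genes separated with LPS higher and 0.035% with LPS lower. Cx3cr1 per Adgre1 had a median of 0.137 in LPS glands and 0.252 in PBS glands, with LPS gland 1 at 0.302 within the PBS range. Plac8 per Adgre1 had a median of 3.37 in LPS glands and 1.55 in PBS glands, and LPS gland 4, at 1.33, lay within the PBS range of 1.10 to 1.68. Medians were close for Csf1r, 0.426 in LPS glands and 0.418 in PBS glands, for C1qa, 3.17 in LPS glands and 3.41 in PBS glands, and for Folr2, 0.376 in LPS glands and 0.357 in PBS glands. The median was lower in LPS glands for Cx3cr1, C1qa, Lyve1 and Maf only, and higher for every other ratio. Among those were Cd68, 1.33 in LPS glands and 0.773 in PBS glands, and Fcgr1, 0.518 in LPS glands and 0.291 in PBS glands.

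**Figure D5:**
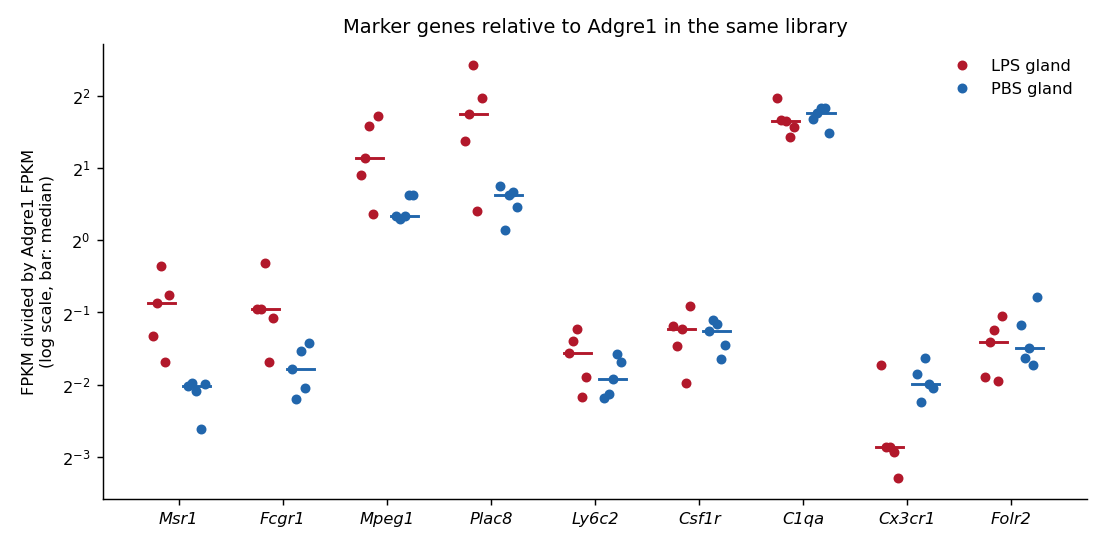
FPKM of 9 of the tested genes divided by that of Adgre1 in the same gland, on a log scale, LPS glands left of PBS glands, with a bar for the median. Msr1 is separated, at 0.310 to 0.781 in LPS glands and 0.163 to 0.253 in PBS glands, and the other 8 ratios overlap.

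The list of signals that recruit monocytes or sustain macrophages had 15 tested genes, of which 4 were higher in LPS glands and 0 lower, beside 2.63% of all genes higher and 0.605% lower. The list's median change was 0.13. Ccl2, the chief ligand of Ccr2, was at 15.3, 32.2, 36.0, 10.9 and 27.0 FPKM in LPS glands, against 5.90, 7.79, 3.67, 5.33 and 10.5 FPKM in PBS glands. All LPS glands lay above all PBS glands, and the change was 1.67 ± 0.31 (limma adjusted p = 0.0157), still called without any single library. It was not called with all genes tested and no filter (adjusted p = 0.0608) or without the 4 glands of high lymphocyte score (1.29, adjusted p = 0.248). Ccl7, another Ccr2 ligand, averaged 26.8 ± 15.1 FPKM in LPS glands and 10.4 ± 1.995 FPKM in PBS glands (1.15, limma adjusted p = 0.0476), and Ccr1, a chemokine receptor of monocytes and neutrophils, 2.61 ± 0.979 FPKM in LPS glands and 1.01 ± 0.313 FPKM in PBS glands (0.82, adjusted p = 0.0380). Leaving out single libraries ended the calls of Ccl7 in 9 of 10 cases and of Ccr1 in 8 of 10, with adjusted p-values up to 0.137 and 0.105. Cx3cl1, the ligand of Cx3cr1, named after its values were seen, averaged 8.68 ± 2.02 FPKM in LPS glands and 4.84 ± 1.18 FPKM in PBS glands (0.73 ± 0.16, limma adjusted p = 0.0328), a call lost without LPS glands 2 or 4 or PBS glands 3, 4 or 5 (up to 0.0919). Csf1, the ligand of Csf1r and likewise named after its values were seen, was at 26.2 ± 6.61 FPKM in LPS glands and 16.2 ± 3.35 FPKM in PBS glands (limma adjusted p = 0.0841). Ccl12 and Ccl8 of this list, also named after their values were seen, had lower means in LPS glands. Ccl12 was at 5.23 ± 1.82 FPKM in LPS glands and 8.40 ± 2.72 FPKM in PBS glands (-0.57, limma adjusted p = 0.267). Ccl8 was at 3.02 ± 1.08 FPKM in LPS glands and 4.22 ± 2.31 FPKM in PBS glands (-0.30, limma adjusted p = 0.685).

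Among related lists, activation and neutrophil genes held most of the calls, all higher in LPS glands, beside 2.63% of all tested genes called higher. Transcription factors of the lineage had 0 of 13 genes called (median change 0.00), with Cebpb at 91.5 ± 6.90 FPKM in LPS glands and 79.5 ± 15.8 FPKM in PBS glands and Cebpa at 12.99 ± 3.39 FPKM in LPS glands and 13.8 ± 3.55 FPKM in PBS glands. Further monocyte markers had 2 of 15 higher, Ifitm6 (1.39, limma adjusted p = 0.0244) and Chil3 (0.89, adjusted p = 0.0157), the gene of the lectin Ym1. Further macrophage markers had 1 of 25 higher, Ms4a6d, at 237 ± 74.4 FPKM in LPS glands and 51.8 ± 17.6 FPKM in PBS glands (2.18, limma adjusted p = 0.00257). Partners of DAP12 and of the Fc receptor chain had 1 of 13 higher, Clec4d (1.33, adjusted p = 0.0188), a lectin receptor that neutrophils carry too. Activation genes had 5 of 9 higher, led by Il1rn (2.06, limma adjusted p = 0.00825), Nos2 (2.05, adjusted p = 0.0195) and Il1b (1.86, adjusted p = 0.00864). No gene of these 5 lists was called lower. Retnla of the activation list and Cd209g of the macrophage list, both named after their values were seen, had lower means in LPS glands. Retnla was at 1.03 ± 0.392 FPKM in LPS glands and 3.59 ± 2.27 FPKM in PBS glands (-1.04, limma adjusted p = 0.0790). Cd209g was at 1.04 ± 0.441 FPKM in LPS glands and 3.33 ± 1.77 FPKM in PBS glands (-0.997, limma adjusted p = 0.0849). The neutrophil list had 8 of 15 higher and 0 lower, with S100a9 at 3866 ± 889 FPKM in LPS glands and 182 ± 135 FPKM in PBS glands. S100a8 was at 7386 ± 2044 FPKM in LPS glands and 873 ± 355 FPKM in PBS glands, and Slfn4 at 36.6 ± 20.9 FPKM in LPS glands and 7.09 ± 1.64 FPKM in PBS glands. Leaving out single libraries ended the calls of Ifitm6 (without LPS glands 2, 3 or 5 or PBS glands 1 or 5, adjusted p up to 0.0681), Nos2 (without LPS gland 2 or PBS glands 1 or 4, up to 0.0593) and Clec4d (without PBS gland 4, 0.0557). Without the 4 glands of high lymphocyte score, 8 genes in all were called, S100a9 (adjusted p = 0.0159) and S100a8 (0.0342) among them, while the other called genes named from these lists lost their calls. Neutrophils express several of the called genes, among them Il1b, Il1rn and Ifitm6, and the part of the neutrophil transcripts in these calls was not tested. Blood endothelial markers, with Pecam1 and Cldn5 the highest, had 0 of 9 called, with summed FPKM of 76.7 to 102 in LPS glands and 75.4 to 108 in PBS glands. Among the remaining lists, dendritic cell markers had 1 of 5 tested genes higher (Bst2), mast cell and basophil markers 1 of 6 (Kit) and lymphatic and lymph node stroma markers 1 of 3 (Pdpn). Other tested genes of these lists, named after their values were seen, had no common direction and were not called. Zbtb46 was at -0.20, with Ccr7 at 0.30, Ccl22 at 0.19 and Fscn1 at 0.02. Cpa3 and Cma1 were at -0.17 and Mcpt4 at -0.06, with Tpsb2 at 0.15 and Tpsab1 at 0.30. In the lymphatic and lymph node stroma list Cxcl13 was at -0.73 and Madcam1 at 0.14. The call of Pdpn was lost in 8 of the 10 fits without a single library (adjusted p up to 0.126) and that of Kit in 5 of 10 (up to 0.0696). The natural killer and innate lymphoid list, with Gata3 and Gzma its highest genes, had 0 of 4 tested genes called. Ncr1, Klrb1c, Klrk1 and Eomes of that list, named after their values were seen, did not pass the filter. B and T cell markers had 0 of 1 called (Trbc2), and milk protein genes 1 of 11 lower (Btn1a1).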

How the data were processed

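RNA of 5 LPS and 5 PBS glands was isolated with a column kit and made into libraries with an Illumina preparation kit, per the labels' protocols. The submitters' processing notes name STAR 2.5, HTSeq 0.6.1, DESeq2 (version given as 2) and build mm10, with no settings. The authors deposited FPKM values for all 35275 genes, of which 12216 were at 0 in every library. Their second deposited table gives raw counts, normalized values (a signal scaled by library size factors), log2 fold changes and adjusted p-values for 908 genes. The plan allowed for counts of all genes; only FPKM covered all genes, so the FPKM test was kept. Per-gene whole reads were recovered from the deposited FPKM for all 23059 genes above 0 (each value lay no more than 0.002 reads off a whole number). Recovered and deposited counts were equal for 907 of the 908 listed genes.

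The 11414 genes that reached 1 FPKM in 5 or more libraries were tested with limma 3.58.1 in R 4.3.3 on log2(FPKM + 1), two-sided, with an intensity trend, group as the only term and Benjamini-Hochberg adjustment over all tested genes. edgeR 4.0.16 and DESeq2 1.42.0 on recovered reads were alternatives. Others were pseudocounts of 0.1 and 5, no filter or a mean FPKM of at least 5, median-of-ratios scaling, scaling to the FPKM outside milk protein genes, a replicate block, a lymphocyte score as covariate, and leaving out each library or the 4 of highest score. A gene planned for that score and for the B and T cell list is not reported here, so both were computed without it, a change made after the data were seen. The limma procedure was tested on simulated data. Sequences and coordinates came from RefSeq and GENCODE M21, both on GRCm38, and shared 50-base stretches were counted in GENCODE M21 transcripts. Depth bears on counting error only, because amplified copies of a molecule count as separate reads.

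The 32 genes, the 14 lists and the alternatives were chosen with earlier results of these data known. All 32 genes are named; of each list, up to 3 called genes of largest change, or the 2 of highest mean FPKM where none was called, are named, and Ly6c1 beside Ly6c2; genes outside this rule are marked in the text as named after their values were seen. Equal replicate numbers were not treated as pairs, because the labels do not say that they mark 1 animal and deviations of same-numbered libraries correlated at 0.0993 for number 3, under the 0.1 required of every number.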

Additional observations from a re-analysis of the deposited data

Results flagged for a closer look

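In 5 of the 64 groups of 5 glands checked, 1 gland stood apart from the rest of its group, with a gap to the nearest gland of more than 0.71 of the group's range. Chance flags about 1 in 20 groups. In LPS gland 5 Aif1 was at 2.70 FPKM, with 6.55 to 8.06 FPKM in the other LPS glands. In LPS gland 2 Tyrobp was at 23.2 FPKM, with 12.7 to 15.1 FPKM in the other LPS glands. LPS gland 3 stood apart for both antigen-presentation genes, with Cd86 at 2.80 FPKM (0.584 to 1.06 FPKM in the other LPS glands) and Cd83 at 3.61 FPKM (0.470 to 0.900 FPKM in the other LPS glands). In PBS gland 2 Cd68 was at 9.40 FPKM, with 6.07 to 6.87 FPKM in the other PBS glands. LPS glands 2 and 3 and PBS gland 2 are among the 4 of highest lymphocyte score, whose part in these values was not tested.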

How the results depend on the processing

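Of the 23 tested marker genes, 0 were called, and 2 with median-of-ratios scaling and 2 with scaling to the FPKM outside milk protein genes (Cx3cr1 and Folr2 both times), 1 by edgeR, 3 by DESeq2 and 0 to 1 without single libraries (Cx3cr1 without LPS gland 1 or PBS gland 5). The cause was not tested. Genes called in all numbered 369, and 126 without the filter, where more genes were tested, 772 with the lymphocyte covariate, 8 without the 4 glands of highest score, where fewer glands remained, 846 by DESeq2, and 150 to 517 without single libraries (150 without LPS gland 2 and without PBS gland 4, 160 without PBS gland 1, 202 without LPS gland 3 and 226 without PBS gland 5). The split of 300 higher and 69 lower was 254 and 115 with median-of-ratios scaling and 128 and 354 with scaling outside milk protein genes. With the replicate number as a block 1229 genes were called, 6 of the markers among them, all lower in LPS glands (Adgre1, C1qa, C1qb, C1qc, Cx3cr1 and Folr2); same-numbered libraries correlated at 0.48, 0.36, 0.10, 0.10 and 0.49, and LPS glands 3 and 4 correlated best with another number, so the numbers are not known to pair glands. The recruited minus resident difference was 0.43 with the block and 0.31 to 0.54 without single libraries.

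The sign was the same under all alternatives for 16 of the 23 genes and turned for 7. Scaling outside milk protein genes gave -0.10 for Cd68, -0.0328 for Mpeg1, -0.0277 for Fcgr3, -0.18 for Fcer1g and -0.12 for Tyrobp. Aif1 was at 0.0388 with the lymphocyte covariate, 0.0577 without the 4 glands, and -0.30 to 0.11 without single libraries (above 0 without LPS gland 5 or PBS gland 2). Stab1 was at 0.0662 with the covariate and at -0.23 to 0.0292 without single libraries (above 0 without PBS gland 2). Fcer1g was at -0.0336 with median-of-ratios scaling, -0.0258 without the 4 glands, -0.0340 by edgeR and -0.0362 by DESeq2, and at -0.13 to 0.14 without single libraries (below 0 without LPS glands 2 or 3 or PBS glands 3 or 5). Tyrobp was at -0.00946 by edgeR and -0.0105 by DESeq2, and at -0.11 to 0.22 without single libraries (below 0 without LPS gland 2 or PBS gland 5). Depth limits Trem2, Marco, Lyve1, Gpnmb, Cd83 and Clec7a, each with 9 or fewer reads in at least 1 library.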
